A study of Mus musculus with 3 samples.

Results

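The cells described here are the neutrophils of the mouse ovary, taken as every cell that the authors' deposited annotation names Neutrophil: 350 of 14353 cells. The cells come from C57BL/6 females in 3 conditions: young mice of 3 months, untreated aged mice, and aged mice that drank metformin, a drug used against type 2 diabetes, at 350 mg/kg/day for 6 months from 14 months of age, called prevention in the labels. How old the untreated aged mice were is not given for their cells. The labels name no engineered allele in any group and no treatment for the young mice. One ovary from each of 3 of the 5 mice of a group went into 1 joint suspension, which was digested for 30 min at 37 °C, filtered at 40 µm, cleared of red cells and prepared for flow sorting, whose gate the labels leave unstated. Each condition carried 1 MULTI-seq tag, a lipid-anchored barcode, and the 3 conditions were mixed in 3 pools called A, B and C before 10x 3′ sequencing.

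A condition is therefore 1 sample and its cells in the 3 pools are technical repeats, so no difference between conditions was tested. Intervals are exact 95% intervals that cover counting error only and not the spread between mice. Levels are UMIs (counted mRNA molecules) of a gene summed over the neutrophils of a condition and scaled to CPM, the usual depth-scaled unit. Ratios are on the log2 scale, with 1 UMI added to each count.

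Neutrophils are short-lived granulocytes that mature in the bone marrow, circulate, and enter tissue along chemokine gradients read by the receptor CXCR2. Their granule proteins are made in order during maturation: myeloperoxidase and elastase first, then specific granule proteins such as lactoferrin and cathelicidin, then gelatinase granule proteins, while the calcium-binding pair S100A8 and S100A9 (calprotectin) fills the cytosol. In tissue, neutrophils can gain expression of SIGLEC-F, lysosomal genes and chemokines such as CCL3 and CCL4. In the ovary they gather around ovulation and at regression of the corpus luteum.

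There were 161 neutrophils from young ovaries (52, 51 and 58 in pools A, B and C), 74 from untreated aged ovaries (24, 22 and 28) and 115 from ovaries of metformin-treated mice (42, 32 and 41). They held 234718, 100013 and 137423 UMIs, with medians of 1112, 1096 and 983 UMIs per cell. Neutrophils had the lowest median depth of the 20 annotated cell types, 1060 UMIs against 4043 in fibroblasts. The median share of UMIs on mitochondrial genes was 0.238% in young, 0.192% in aged and 0.256% in metformin neutrophils. Across all cells, 26 barcodes occurred in more than 1 pool, none of them in a neutrophil. The deposited doublet column flagged 0 cells.

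The label held against its markers. S100a8 had a UMI in 93.7% and S100a9 in 92.9% of neutrophils, and in at most 6.67% of the cells of any other type. Retnlg, a resistin-like secreted protein of granulocytes, had a UMI in 48.0% of neutrophils and in at most 0.467% of cells of any other type. Cxcr2, the chemokine receptor, had a UMI in 53.7% of neutrophils and in 6 of 13 basophils, and in at most 1.33% elsewhere. Of the 350 neutrophils, 103 had UMIs of all 4 markers, 141 of 3, 83 of 2, 8 of 1 and 15 of none. Only 3 cells outside the class had UMIs of at least 3 markers. Hemoglobin transcripts and Alas2 were at 0 in all neutrophils, which allows up to 0.857% of cells with a UMI. The eosinophil genes Prg2, Il5ra and Alox15, the basophil gene Mcpt8 and the plasmacytoid gene Siglech were also at 0. The 3 other deposited genes of the eosinophil list, Siglecf, Ear2 and Ccr3, were detected. Mpo and Elane, made by immature neutrophils, have no row among the deposited genes. Ly6g, the usual antibody target for mouse neutrophils, was nearly absent from this 3′ readout, with 3, 5 and 1 UMIs in the 3 conditions.

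The first question was how many neutrophils the ovary held. They made up 2.11% of young cells (interval 1.80 to 2.46%), 2.48% of aged cells (1.96 to 3.11%) and 3.06% of metformin cells (2.54 to 3.67%). The aged share was 1.18 times the young share (0.880 to 1.56), and the pools gave 0.940, 1.15 and 1.56 times. The metformin share was 1.23 times the aged share (0.913 to 1.67), and the pools gave 1.64, 1.32 and 0.844 times. Both intervals include 1, and 1 pool in each comparison went the other way.

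**Figure D1:**
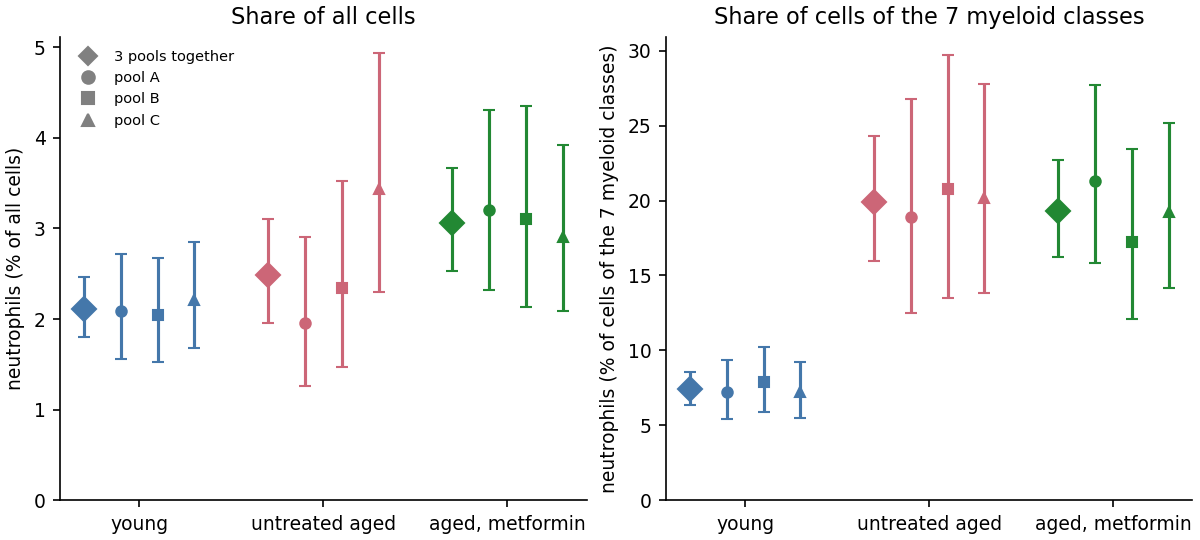
Neutrophils as a percent of all cells (left) and of the cells of the 7 myeloid classes (right) by condition, for the 3 pools together (diamonds) and for each pool, with exact 95% intervals for counting error. For shares of all cells, the untreated aged interval overlaps both others. The young interval (1.80 to 2.46%) lies below the metformin interval (2.54 to 3.67%). Shares of myeloid cells are 7.40% in young and 19.9% and 19.3% in the aged conditions.

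Among myeloid cells alone the picture differed. Neutrophils were 7.40% of the young cells of the 7 myeloid classes (macrophages, dendritic cells, mast cells, basophils and neutrophils; interval 6.33 to 8.58%), 19.9% of the aged (16.0 to 24.3%) and 19.3% of the metformin myeloid cells (16.2 to 22.7%). On this denominator the aged share was 2.69 times the young share (2.01 to 3.56). The young pools ran from 7.19% to 7.87% and the aged pools from 18.9% to 20.8%, without overlap. The myeloid classes held 2176 of 7620 young cells and 372 of 2979 aged cells, so the denominator differed far more than the neutrophil share of all cells. Metformin and untreated aged ovaries differed by a factor of 0.970 (0.718 to 1.32) on this scale. Shares depend on the sort, whose gate is not known, so a share cannot be turned into a number of cells per ovary.

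The second question was how the neutrophils themselves differed between young and aged ovaries. Of 2211 genes that reached 20 UMIs in young and aged neutrophils together, 76 were at least 2-fold higher in aged neutrophils (3.44%) and 199 at least 2-fold lower (9%), with a median log2 ratio of -0.09 over all of them. Between metformin and untreated aged neutrophils, 1720 genes were counted, 203 at least 2-fold higher with metformin (11.8%) and 84 at least 2-fold lower (4.88%), with a median of 0.16. A fold of 2 is a description here and not a test. Both comparisons use the same 74 aged cells and are not independent of each other, so their values stand side by side below.

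The calprotectin genes lie next to each other on chromosome 3 (GRCm38, GENCODE vM21): S100a8 at 3:90668978-90670035 on the plus strand and S100a9 at 3:90692632-90695721 on the minus strand. Retnlg lies at 16:48872621-48874496 on the plus strand. Because these 3 genes are markers of the class and stood highest in aged cells with the pools together, the sequence before their RefSeq start is printed here 5′ to 3′ on the gene's strand (RefSeq, GRCm38.p6). The windows are chr16:48872358-48872607 for Retnlg, chr3:90695722-90695971 for S100a9 and chr3:90668821-90668977 for S100a8, whose window was ended where a GENCODE exon begins. Capitals mark a match to TTGCNNAA or its reverse complement TTNNGCAA, a core that C/EBP factors of the granulocyte lineage can bind.
Retnlg: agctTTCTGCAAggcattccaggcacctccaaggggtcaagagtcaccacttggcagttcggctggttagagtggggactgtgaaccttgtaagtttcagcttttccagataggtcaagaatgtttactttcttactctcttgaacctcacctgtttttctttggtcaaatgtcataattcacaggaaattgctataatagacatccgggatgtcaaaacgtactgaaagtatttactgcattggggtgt
S100a9: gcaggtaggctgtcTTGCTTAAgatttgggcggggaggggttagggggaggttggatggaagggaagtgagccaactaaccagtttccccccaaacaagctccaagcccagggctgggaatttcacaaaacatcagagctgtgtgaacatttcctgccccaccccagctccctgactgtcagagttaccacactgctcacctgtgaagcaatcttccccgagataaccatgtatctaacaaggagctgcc
S100a8: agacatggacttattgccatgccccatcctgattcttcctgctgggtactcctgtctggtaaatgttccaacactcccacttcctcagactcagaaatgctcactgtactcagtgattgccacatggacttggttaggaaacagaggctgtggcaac

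The Retnlg window held 1 match, on the strand opposite to the gene, from -246 to -239 relative to the start, and the S100a9 window held 1 on the gene's strand, from -236 to -229. The core was found in 9.56% of the 32851 RefSeq promoter windows of 250 bases. The S100a8 window held no match to it. The core GAGGAA (reverse complement TTCCTC), which PU.1 can bind, matched the 250 bases before the S100a8 start 2 times, from -170 to -165 and from -36 to -31, the latter beyond the printed end, and occurred in 23.3% of windows. An NF-kappaB type core, found in 17.6% of windows on either strand, was in none of the 3 windows. A match is a run of letters and not a measured site.

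S100a9 stood at 44943 CPM in young, 80770 in aged and 33357 in metformin neutrophils. By pool it was 56211, 38990 and 40919 in young, 115594, 44994 and 79535 in aged, and 25869, 44043 and 35695 in metformin cells. The aged level was highest in pools A and C, while in pool B all 3 conditions lay close together. The log2 ratio was 0.85 (0.80 to 0.89) for aged against young and -1.28 (-1.33 to -1.22) for metformin against aged. S100a8 followed the same order at 42864, 76650 and 35780 CPM, with log2 ratios of 0.84 (0.80 to 0.88) and -1.10 (-1.15 to -1.05). In pool B the S100a8 level was 34386 in aged and 42522 in metformin cells, the reverse of the other pools. Without pool A, the S100a9 ratio of metformin to aged was -0.66 and that of S100a8 -0.45, both short of 2-fold.

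Retnlg differed most among the markers. It stood at 3702 CPM in young, 12258 in aged and 2212 in metformin neutrophils. The pools gave 4771, 2922 and 3505 in young, 19687, 6402 and 10197 in aged, and 1056, 2679 and 3458 in metformin cells. Every aged pool was above every young and every metformin pool. The log2 ratio was 1.73 (1.60 to 1.85) for aged against young and -2.47 (-2.66 to -2.29) for metformin against aged, and it was -1.40 without pool A. A Retnlg UMI was found in 81 of 161 young (50.3%), 55 of 74 aged (74.3%) and 32 of 115 metformin neutrophils (27.8%). With each cell thinned to 500 UMIs the shares were 40.4%, 64.9% and 25.2%, against 0 in fibroblasts of every condition. Cxcr2, the receptor that draws neutrophils to CXCL1 and CXCL2, did not share this pattern: it stood at 980, 800 and 488 CPM, with a log2 ratio of -0.28 (-0.68 to 0.08) with age and -0.71 (-1.20 to -0.23) with metformin. Csf3r, the receptor for the growth factor G-CSF, was level at 963, 1040 and 880 CPM.

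**Figure D2:**
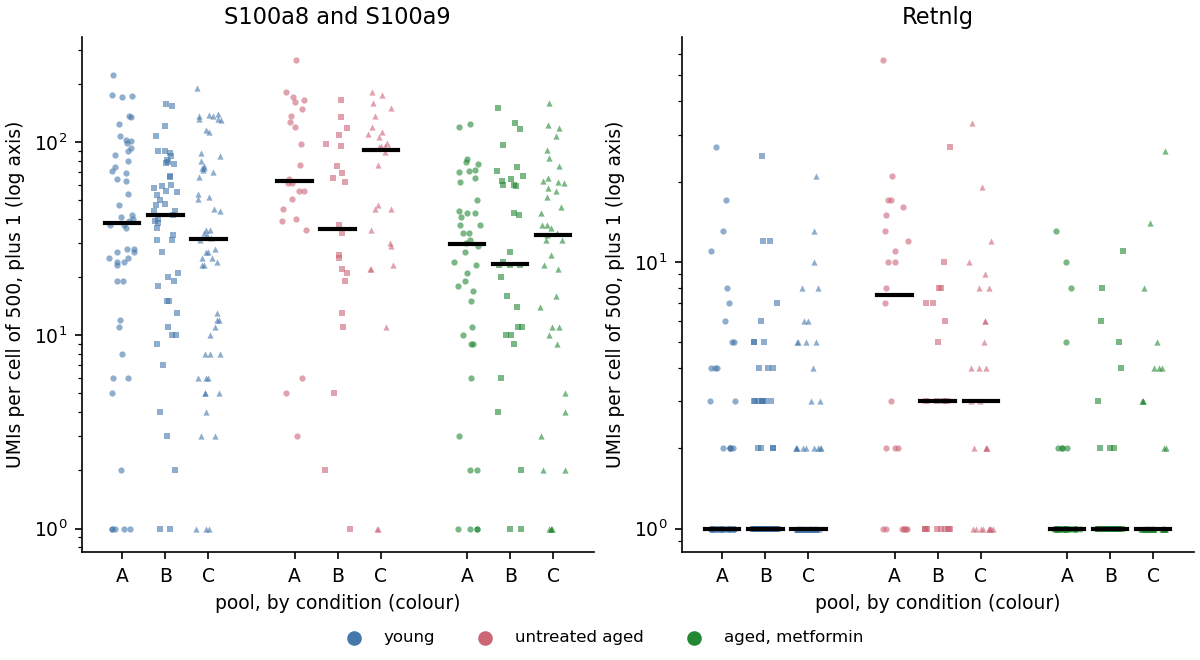
UMIs of S100a8 and S100a9 together (left) and of Retnlg (right) in each neutrophil thinned to 500 UMIs, plus 1 on a log axis, by pool within condition, with the pool median as a bar. Aged cells have a median of 62.0 S100a8 and S100a9 UMIs against 36.0 in young and 29.0 in metformin cells, and the median of Retnlg is above 0 only in the aged pools.

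The spread from cell to cell was wide. In thinned cells the sum of S100a8 and S100a9 ran from 0 to 221 UMIs in young, 0 to 264 in aged and 0 to 158 in metformin neutrophils. Medians were 36.0, 62.0 and 29.0 UMIs. The aged pools had medians of 61.5, 34.5 and 90.0, so aged pool B lay within the range of the young pools, whose medians were 37.0, 41.0 and 30.5. Retnlg was at 0 in 59.6% of young, 35.1% of aged and 74.8% of metformin cells after thinning, and its highest cells had 26, 56 and 25 UMIs.

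Genes for specific granule proteins differed in the same direction as these markers. Of the 12 listed, 10 are among the deposited genes and 7 had at least 20 UMIs in either comparison. All 7 had a higher level in aged than in young cells, 3 of them by at least 2-fold (Lcn2, Camp and Pglyrp1; 3.44% of all genes), with a median log2 ratio of 0.999 against -0.09 over all genes. All 7 were at least 2-fold lower with metformin than in untreated aged cells (4.88% of all genes), with a median of -1.86 against 0.16 over all genes. One of the 7, Camp, had its UMIs in a single aged cell, and Chil3, a chitinase-like protein, had 26, 22 and 2 UMIs in 8, 3 and 2 cells, with 15 of the 22 in that same aged cell. Without that cell Chil3 turned to -0.44 with age and Pglyrp1 fell short of 2-fold at 0.90, which left Lcn2 at 1.02 as the one member past 2-fold with age. The pool medians for metformin against aged were -3.91, -0.57 and -1.14, and the median without pool A was -0.88. Without pool A, Mmp8 (-0.46), Lrg1 (-0.85) and Pglyrp1 (-0.88) were no longer 2-fold lower with metformin.

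Lcn2, the iron-withholding protein lipocalin 2, stood at 520 CPM in young, 2110 in aged and 342 in metformin cells. Its log2 ratios were 2.02 (1.69 to 2.35) with age and -2.60 (-3.11 to -2.16) with metformin. A single aged cell held 53.1% of the aged Lcn2 UMIs, and without it the ratios were 1.02 and -1.60. Without pool A the ratio with age was 0.99. In pool B the aged level of 518 was no higher than the young level of 571.

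Hp, which encodes the hemoglobin-binding protein haptoglobin, was spread over more cells: 946, 1580 and 429 CPM, with UMIs in 87 young, 46 aged and 32 metformin cells. Its level in aged cells was 1951, 1311 and 1452 CPM in the 3 pools and in metformin cells 214, 639 and 569, so the pools of these conditions did not overlap. The log2 ratio was 0.74 (0.44 to 1.04) with age and -1.86 (-2.34 to -1.44) with metformin. Pglyrp1, a peptidoglycan-binding antibacterial protein, stood at 694, 1460 and 495 CPM, with log2 ratios of 1.07 (0.74 to 1.40) and -1.55 (-2.00 to -1.14). The ratio with age was 0.85 without pool A. Mmp8, the neutrophil collagenase, stood at 213, 310 and 94.6 CPM, and its ratio with age of 0.56 (-0.15 to 1.22) was 0.04 without the single granule-rich cell described next. Lrg1, a secreted glycoprotein, stood at 230, 390 and 109 CPM. Its ratio with metformin of -1.78 was 0.29 in pool B alone.

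One aged cell of pool A stood apart. It held 5860 UMIs, all 43 Camp UMIs of the neutrophils (cathelicidin) and all 12 Ltf UMIs of the aged neutrophils (lactoferrin). S100a8 and S100a9 made up 28.3% and 27.8% of its UMIs, and it carried 21.6% and 20.2% of all aged UMIs of these genes. No young neutrophil had a Camp or Ltf UMI, and 4 metformin cells together had 6 Ltf UMIs. Without this cell, chosen after seeing the data, the aged levels were 68495 CPM for S100a9, 63800 for S100a8 and 11418 for Retnlg. The log2 ratios of S100a9 were then 0.61 with age and -1.04 with metformin, those of S100a8 0.57 and -0.83, and those of Retnlg 1.62 and -2.36. The median of the specific granule list without it was 0.70 with age and -1.60 with metformin.

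The list of gelatinase granule and secretory proteins differed in the same directions. All 8 of its members with at least 20 UMIs were higher in aged than in young cells, 3 of them by at least 2-fold (Retnlg, Wfdc21 and Anxa1; 3.44% of all genes), with a median log2 ratio of 0.69. Without the granule-rich aged cell Wfdc21 stood at 0.73 and Anxa1, a regulator of neutrophil adhesion, at 0.78, so of the 3 only Retnlg was still past 2-fold. All 8 were lower with metformin, 3 by at least 2-fold (Retnlg, Wfdc21 and Stfa2l1; 4.88% of all genes), with a median of -0.84 and pool medians of -1.41, 0.04 and -1.17. Wfdc21, a secreted whey acidic protein, stood at 413, 870 and 175 CPM, with ratios of 1.08 (0.64 to 1.51) and -2.27 (-3.03 to -1.65). The granule-rich cell held 26.4% of its aged UMIs, and the ratio with age was 0.63 without pool A. Every metformin pool, at 181, 152 and 182 CPM, was below every aged pool, at 1406, 610 and 556. Mmp9, the gelatinase itself, stood at 729, 1170 and 691 CPM, and Slpi, a leukocyte protease inhibitor, at 2433, 3410 and 2540. Stfa2l1 stood at 362, 580 and 269 CPM with a metformin ratio of 0.94 in pool B against -1.44 and -2.57 in pools A and C, and reads of this stefin may be shared with its near-identical copies. Without pool C its metformin ratio was -0.16. Trim30b, a tripartite motif protein, stood at 260, 520 and 116 CPM, with ratios of 1.004 (0.44 to 1.56) and -2.10 (-3.07 to -1.33) and the same direction in all 3 pools. Its ratio with age was 0.80 without pool B.

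**Figure D3:**
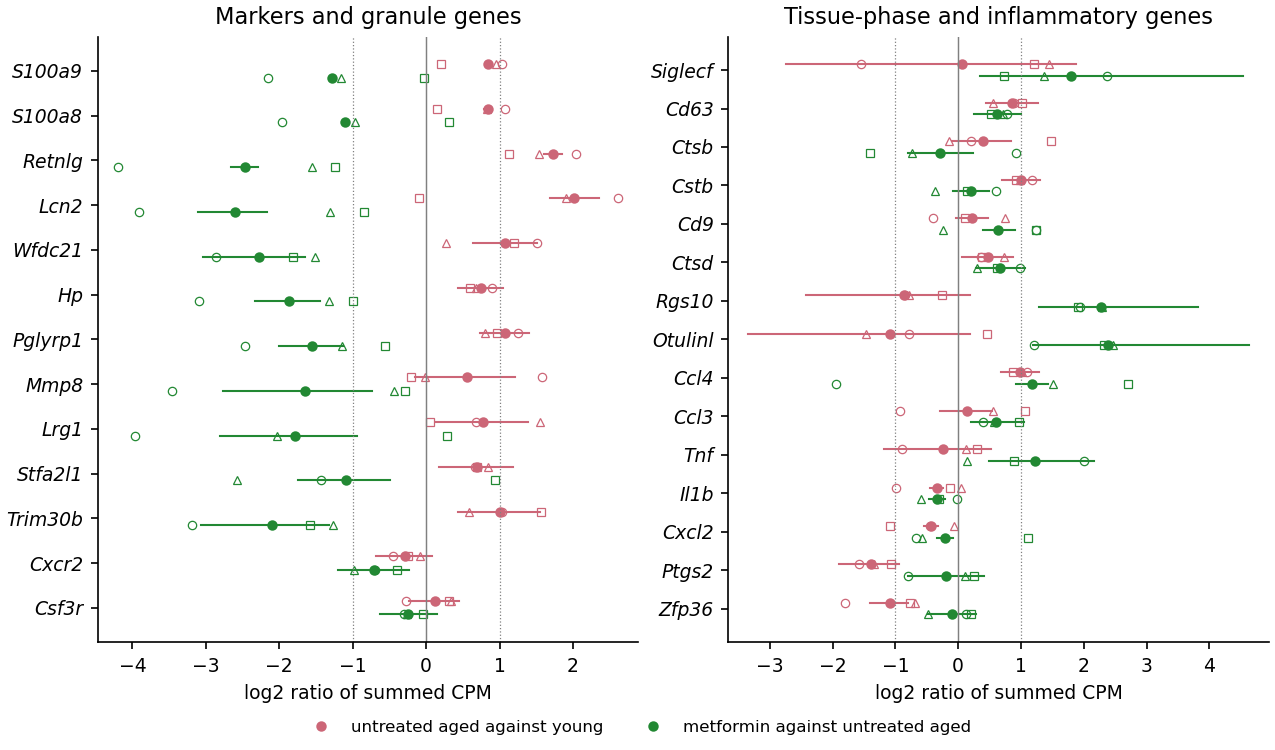
Log2 ratio of summed CPM for marker and granule genes (left) and for tissue-phase and inflammatory genes (right), aged against young in red and metformin against untreated aged in green, with 95% counting intervals. Filled points are the 3 pools together and open symbols single pools (circle A, square B, triangle C). Dotted lines mark 2-fold. Granule genes lie to the right with age and to the left with metformin, with pool A farthest from 0 for most of them.

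Further genes named by their rank were higher in aged than in young neutrophils. Casp4, the inflammatory caspase that senses lipopolysaccharide, stood at 38.3, 160 and 65.5 CPM in young, aged and metformin cells, with UMIs in 8, 14 and 8 cells and a ratio with age of 1.996 (0.80 to 3.42). Spp1, the secreted matrix protein osteopontin, stood at 25.6, 220 and 204 CPM. It had UMIs in 5, 6 and 13 cells, so its aged ratio of 2.95 (1.76 to 4.70) rested on few cells. Lgals3 (galectin 3) was 1.17 (0.78 to 1.56) higher, but 1 aged cell held 56.4% of its aged UMIs, and without that cell the ratio was 0.03. Lrrfip2 stood at 59.6, 190 and 182 CPM. Vim, the intermediate filament vimentin, stood at 290, 680 and 196 CPM, but it is also a fibroblast gene, found in 24.9% of thinned aged fibroblasts.

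Ptgs2, Zfp36, Oser1 and Pts were lower in both aged conditions than in young. Ptgs2, the inducible cyclooxygenase that makes prostaglandins, stood at 1193 CPM in young, 450 in aged and 393 in metformin neutrophils. The young pools had 1614, 1009 and 1010 CPM, the aged pools 517, 457 and 371 and the metformin pools 297, 548 and 410. No young pool overlapped a pool of either aged condition. The ratio of aged to young was -1.38 (-1.89 to -0.95) and that of metformin to aged -0.20 (-0.79 to 0.41). A Ptgs2 UMI was found in 64.6% of young, 33.8% of aged and 24.3% of metformin cells, or in 47.2%, 18.9% and 18.3% after thinning, against 0.605% of young fibroblasts. Zfp36, an RNA-binding protein that shortens the life of cytokine mRNAs, stood at 2284, 1070 and 997 CPM, with a ratio with age of -1.08 (-1.41 to -0.79), which was -0.74 without pool A.

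Oser1, an oxidative stress responsive gene, and Pts, an enzyme of tetrahydrobiopterin synthesis, were found mostly in young neutrophils. Oser1 stood at 490, 70.0 and 36.4 CPM, with UMIs in 68 of 161 young, 6 of 74 aged and 5 of 115 metformin cells. Its ratio with age was -2.63 (-4.15 to -1.72), and the young pools, at 702, 359 and 431 CPM, did not overlap the aged pools, at 57.4, 91.5 and 61.8. Pts stood at 332, 40.0 and 36.4 CPM, with UMIs in 46, 4 and 5 cells and a ratio of -2.75 (-4.97 to -1.64). In thinned T cells the share with an Oser1 UMI was 4.76% in young, 2.71% in aged and 0.683% in metformin ovaries, and in thinned neutrophils 19.9%, 4.05% and 2.61%.

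Cdkn1a, the cell cycle inhibitor p21, had 33 UMIs in 20 young cells and none in aged cells. Against the floor of 3 UMIs over the condition, its aged level was lower by at least 2.23 on the log2 scale. Cpeb2, a regulator of translation, had 24 UMIs in young and 18 in metformin cells and none in aged cells, at least 1.77 lower in aged than in young and at least 2.13 higher with metformin on the same scale. Prdx2, an antioxidant peroxiredoxin, had 27, 0 and 3 UMIs, and Cd83, a surface protein of activated myeloid cells, 25, 0 and 1.

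Read as lists, these differences were moderate. Of the 23 dissociation stress and immediate early genes, 19 had at least 20 UMIs, of which 15 were lower in aged cells but only 1 (Zfp36) by at least 2-fold (9% of all genes), with a median of -0.32. All conditions were digested by the same protocol, but each was 1 suspension, so handling and condition cannot be told apart. Of 16 NF-kappaB feedback genes, 12 were counted, none was at least 2-fold higher and 3 were at least 2-fold lower, against 9% of all genes: Ier3, Icam1 and Cd83. Icam1, an adhesion molecule, had a ratio of -1.14 that was -0.67 without pool A and -0.91 without its highest cell. The median was -0.35 with age and 0.22 with metformin. Ier3, an early stress response gene, stood at 1155, 510 and 822 CPM, with a ratio with age of -1.16 (-1.64 to -0.74).

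The cytokines that neutrophils make in bulk differed less. Il1b, the fever cytokine interleukin 1 beta, had a UMI in 98.8% of young, 91.9% of aged and 88.7% of metformin neutrophils, at 12543, 9909 and 7852 CPM. The ratio was -0.34 both with age (-0.45 to -0.24) and with metformin (-0.46 to -0.21). Cxcl2, the main chemokine ligand of CXCR2 made by neutrophils themselves, stood at 11239, 8339 and 7211 CPM. Of the cytokine and chemokine list, 17 of 25 members were counted. With age none was at least 2-fold higher, and Ptgs2 and Cxcl3 were at least 2-fold lower (9% of all genes), with a median of -0.24 against -0.09 over all genes. With metformin, 5 were at least 2-fold higher (Tnf, Cxcl1, Cxcl10, Ccl4 and Ccl5; 11.8% of all genes) and none was lower by that much. The list's median with metformin was -0.09, below the 0.16 over all genes. Tnf stood at 209, 170 and 415 CPM, with UMIs in 25, 13 and 21 cells and a metformin ratio of 1.23 that was 0.54 without pool A.

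Neutrophils were a small class that carried a large part of some inflammatory transcripts of the ovary. They held 16.4% of all Il1b UMIs in young, 32.8% in aged and 26.1% in metformin ovaries. For Cxcl2 the shares were 13.2%, 25.4% and 38.4%. In young ovaries the larger macrophage class, Macrophage/Monocyte I, held 83.9% of Cxcl2 UMIs, in aged ovaries 64.0% and in metformin ovaries 43.9%. Cxcl1, the other main ligand of CXCR2, came mostly from fibroblasts: 40.8%, 78.4% and 69.6% of its UMIs, while neutrophils had 3, 3 and 17 UMIs. Il17a, which drives G-CSF and neutrophil recruitment, was found mainly in the T cell/ILC class, with 44, 142 and 75 UMIs and 102, 348 and 111 CPM in that class. Csf1, a macrophage growth factor, stood at 435, 300 and 560 CPM in neutrophils, which held 18.2%, 10.6% and 30.7% of its UMIs.

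The third question was which genes were higher with metformin. For genes linked to long residence of neutrophils in tissue, of 20 listed 17 had at least 20 UMIs, 4 were at least 2-fold higher with metformin than in untreated aged cells (among them Siglecf, Ccl4 and Tnf; 11.8% of all genes) and none was lower by that much. Ccl4 and Tnf also belong to the cytokine list, and Ccl4 stood at 0.13 without 1 cell. The median log2 ratio was 0.78 against 0.16 over all genes, with 0.85, 0.73 and 0.25 in the 3 pools and 0.27 in thinned cells. With age 16 members of the same list were counted. Of these, 2 were at least 2-fold higher (Spp1 and Lgals3; 3.44% of all genes), both resting on few aged cells as described above. Another 3 were at least 2-fold lower (among them Icam1 and Ptgs2; 9% of all genes). The median was 0.18, which ran from -0.34 to 0.31 when 1 pool was left out. With metformin that range was 0.44 to 0.53. The list was put together with earlier results of these data known.

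Ltc4s, the leukotriene C4 synthase, had 7 UMIs in 5 young cells, none in aged cells and 28 UMIs in 17 metformin cells. Its level with metformin was at least 2.76 higher than in aged cells on the log2 scale, counted against the floor of 3 UMIs over the condition. Neutrophils held 29.8% of all Ltc4s UMIs of the metformin ovaries, 0.735% in young and none in aged ovaries. After thinning it was found in 1.86% of young, 0 of 74 aged (which allows up to 4.05%) and 9.57% of metformin neutrophils, against at most 0.0770% of fibroblasts. It was found in 20.2% of the Macrophage/Monocyte I cells.

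Siglecf, the lectin that gives tissue-resident SIGLEC-F neutrophils their name, had UMIs in 6 young, 3 aged and 14 metformin neutrophils. After thinning it was found in 1.24% of young, 0 of 74 aged (which allows up to 4.05%) and 5.22% of metformin neutrophils, against 0 of fibroblasts and at most 0.171% of T cells. The metformin pools, at 132, 122 and 136 CPM, lay above the aged pools, at 0, 61.0 and 30.9, and above the young pools, at 70.2, 26.6 and 11.3. The ratio with metformin was 1.79 (0.35 to 4.53). Siglecf also marks eosinophils, whose genes Prg2, Il5ra and Alox15 were at 0 in these cells, while Ear2 and Ccr3 were detected. Of 9 listed eosinophil genes, 6 are among the deposited genes. Ear2 had a ratio with age of -2.86, with -2.87, -0.61 and -2.36 in the 3 pools. The summed eosinophil markers, Siglecf included, stood at 179, 40.0 and 131 CPM, and 5, 0 and 1 cells had at least 3 such UMIs. Whether eosinophils were among these cells was not tested. Cd63, a tetraspanin of lysosomes and azurophil granules, stood at 503, 910 and 1397 CPM, with ratios of 0.86 (0.45 to 1.26) with age and 0.61 (0.25 to 0.99) with metformin. After thinning it was found in 13.7%, 21.6% and 31.3% of neutrophils and in 1.19%, 0.905% and 1.37% of T cells. In fibroblasts of the same condition Cd63 was found at least as often as in neutrophils. Ctsd, the lysosomal protease cathepsin D, stood at 584, 810 and 1288 CPM, with the metformin pools at 1353, 1187 and 1274 and the aged pools at 660, 762 and 1020. Cstb, which inhibits lysosomal cathepsins, stood at 856, 1710 and 1965 CPM, higher in both aged conditions than in young. The aged level rested on few cells. In cells with a Retnlg UMI Cstb stood at 201, 275 and 400 CPM. In cells without one it stood at 1535, 5536 and 2499 CPM, the aged value from UMIs in 12 of 19 cells.

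**Figure D4:**
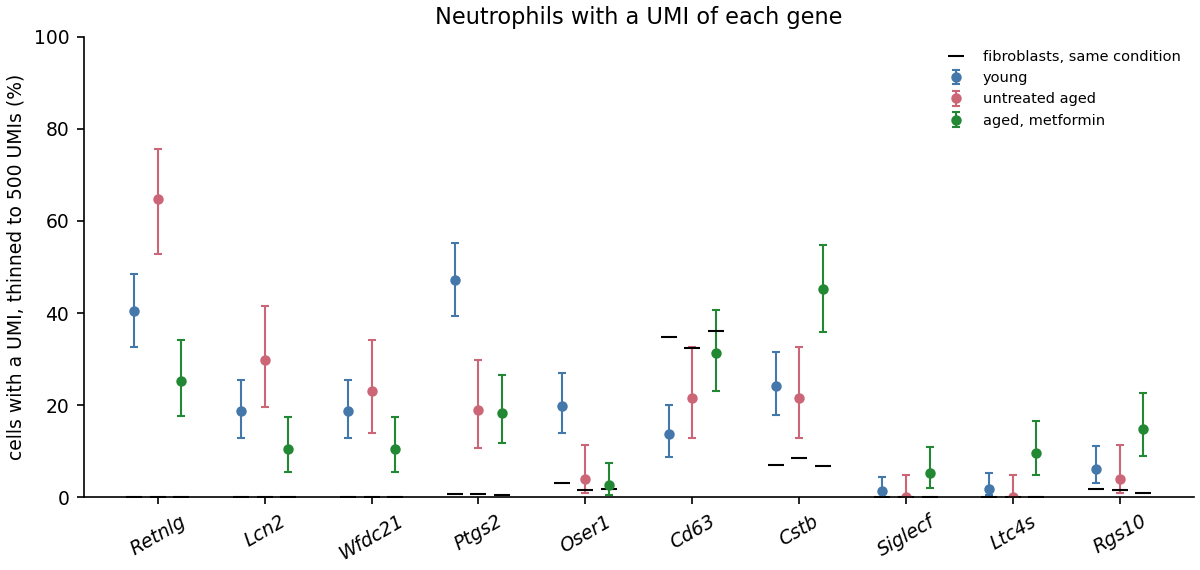
Percent of neutrophils with a UMI of each gene after thinning every cell to 500 UMIs, with exact 95% intervals, beside the same percent in fibroblasts of the same condition (dashes). Retnlg is found in 40.4%, 64.9% and 25.2% of young, aged and metformin neutrophils, Ptgs2 in 47.2%, 18.9% and 18.3%, and Ltc4s in 1.86%, 0% and 9.57%. Cd63 is found at least as often in fibroblasts as in neutrophils.

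Further genes ranked among the highest with metformin without belonging to a list. Rgs10, which dampens G protein signalling downstream of chemokine receptors, stood at 141, 70.0 and 378 CPM, with metformin pools at 313, 426 and 432 and aged pools at 57.4, 91.5 and 61.8. The ratio was 2.27 (1.29 to 3.82). Otulinl, related to a deubiquitinase, stood at 102, 40.0 and 255 CPM, with a ratio of 2.39 (1.19 to 4.62). Arl1, a small GTPase of the Golgi, stood at 55.4, 10.0 and 146 CPM, with a single UMI in aged cells. Ccl4, a chemokine that draws monocytes and T cells, stood at 856, 1690 and 3820 CPM. Its metformin ratio was 1.17, and 1 cell held 51.8% of its metformin UMIs.

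Some of the highest ratios sat in few cells that carried markers of other cell types. Dcn, the fibroblast matrix gene decorin, had 104 UMIs in 7 metformin neutrophils, 51.9% of them in 1 cell, against 2 UMIs in aged cells. Summed fibroblast markers stood at 222, 60.0 and 1615 CPM in the 3 conditions, and 1, 0 and 2 cells had at least 3 such UMIs. Apoe stood at 997, 190 and 968 CPM and Cd74, the MHC class II chaperone, at 703, 60.0 and 175. Summed macrophage markers, 10 of 11 of them detected and Cd163 at 0, stood at 1312, 620 and 1477 CPM, with pools from 823 to 1668 in young, 545 to 732 in aged and 913 to 2138 in metformin cells. Summed dendritic cell markers stood at 213, 40.0 and 36.4 CPM. Without the 20 young, 6 aged and 10 metformin cells that had at least 3 UMIs of fibroblast, macrophage, dendritic, T or NK cell markers, a choice made after seeing the data, Dcn had a ratio with metformin of 0.60 in place of 4.67 and Apoe 0.51 in place of 2.29. Cd74 had a ratio with age of -0.84 in place of -3.34. The same step gave a metformin ratio of -2.42 for Retnlg and a ratio with age of -1.46 for Ptgs2. Summed monocyte markers stood at 1819, 1530 and 1084 CPM, and summed B cell markers at 1329, 1690 and 1666. The part of such markers in the other ratios was not tested.

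Within each condition the granule genes shown here were found more often in cells with a Retnlg UMI, while tissue-phase genes were mixed, which is given as a description since the cells were split by a measured gene. Neutrophils with and without a Retnlg UMI had close median depths: 1151 and 1013.5 UMIs in young, 1059 and 1192 in aged and 1048 and 943 in metformin cells. Wfdc21 was found in 48.1% of young cells with Retnlg and 8.75% of those without, in 45.5% and 10.5% of aged cells and in 37.5% and 7.23% of metformin cells. Hp was found in 72.8% and 35.0% of young cells, 72.7% and 31.6% of aged cells and 56.2% and 16.9% of metformin cells. Cstb ran the other way, in 22.2% and 53.8% of young, 23.6% and 63.2% of aged and 18.8% and 67.5% of metformin cells. Cd63 was found in 21.0% and 36.2% of young cells, 25.5% and 52.6% of aged cells and 25% and 49.4% of metformin cells. Siglecf was found in 0 of 81 young cells with Retnlg, which allows a share of up to 3.70%, and in 6 of 80 without. In metformin cells it was found in 1 of 32 and 13 of 83, and in aged cells in 2 of 55 and 1 of 19. Lgals3 was found more often with Retnlg in young (45.7% and 25%) and metformin cells (34.4% and 19.3%), but not in aged cells (30.9% and 36.8%). Cxcr4, a chemokine receptor that retains neutrophils in marrow, was found in 51.9% and 53.8% of young, 50.9% and 68.4% of aged and 62.5% and 53.0% of metformin cells. Cd9, a tetraspanin, was found in 76.5% and 72.5% of young cells and more often without Retnlg in both aged conditions.

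**Figure D5:**
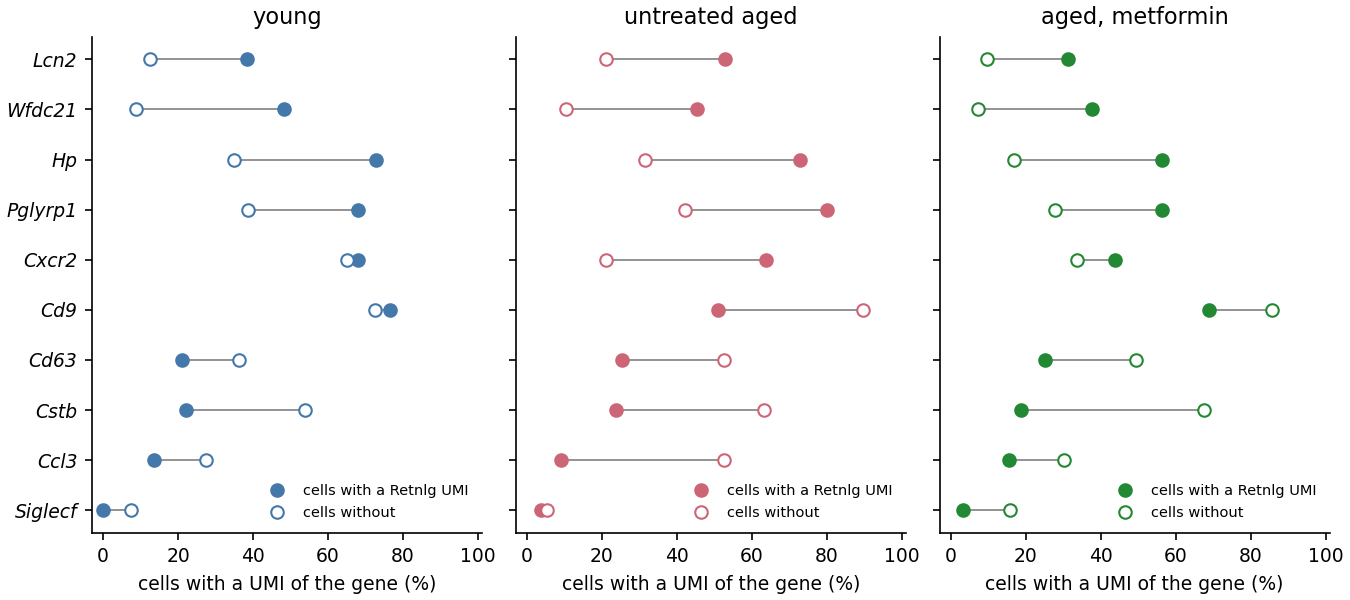
Percent of neutrophils with a UMI of each gene, among cells with a Retnlg UMI (filled) and without (open), in young, untreated aged and metformin ovaries. Granule genes are found more often in Retnlg-positive cells and Cstb, Cd63 and Ccl3 more often in Retnlg-negative cells in all 3 conditions.

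Retnlg-positive cells had higher S100a9 levels in each condition, 68087 against 20984 CPM in young, 104294 against 18038 in aged and 70742 against 20595 in metformin cells. The aged Retnlg-positive cells include the granule-rich cell, which held 20.2% of all aged S100a9 UMIs. The Retnlg-negative cells of the 3 conditions lay close together in S100a9, while their number differed: 80 of 161 young, 19 of 74 aged and 83 of 115 metformin cells. In S100a8 they lay farther apart, at 22753 CPM in young, 18661 in aged and 26159 in metformin cells. Ltc4s was found in 4 of the 80 young, 0 of the 19 aged and 17 of the 83 metformin cells without Retnlg. Cxcr2 did not split in young cells, at 67.9% and 65.0%, but was found in 63.6% and 21.1% of aged cells with and without Retnlg.

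The MHC class II genes, which present antigen and are typical of macrophages and dendritic cells, had a median of -2.45 with age, the lowest of the lists of neutrophil function. Of 8 listed, 4 were counted, all lower in aged cells, 3 of them by at least 2-fold (Cd74, H2-Aa and H2-Ab1; 9% of all genes). The pool medians were 0.24, -0.75 and -2.75, so pool A had the other sign. The median was -1.73 without pool C. H2-Ab1 stood at 230 CPM in young and 30.0 in aged cells, and 40.7% of its young UMIs were in 1 cell. Without the cells with at least 3 UMIs of other cell types' markers the list's median was -0.84 and H2-Aa turned to 0.43.

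The list of other neutrophil markers, which shares members with the granule lists, had 17 of 20 members counted. With age 11 were higher, 3 by at least 2-fold (Lcn2, Camp and Wfdc21; 3.44% of all genes), with a median of 0.40. With metformin 16 were lower, 6 by at least 2-fold (Stfa2l1, Lcn2, Camp, Wfdc21, Mmp8 and Hp; 4.88% of all genes), with a median of -0.71. All 6 S100 genes were counted, 5 of them lower with metformin, 3 by at least 2-fold (S100a8, S100a9 and S100a4; 4.88% of all genes), with a median of -0.87. The pool medians were -1.12, -0.02 and -0.79, and the median was -0.45 without pool A. S100a4 had 69.0% of its aged UMIs in 1 cell and a metformin ratio of 0.18 without the cells with other markers.

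Of 9 mitochondrially encoded genes counted with age, 8 were lower in aged cells, 2 by at least 2-fold (9% of all genes), with a median of -0.40. The pool medians were -0.35, 0.41 and -1.95, and the median was 0.11 without pool C. With metformin 8 were counted and 7 were higher, 2 by at least 2-fold (11.8% of all genes), with a median of 0.57. The pool medians were 0.41, -1.39 and 2.90, and the median was -0.87 without pool C. The pools differed in sign in both comparisons, so no direction is read from this list. Of 15 genes of innate sensing and Fc receptors counted with metformin, 10 were lower, 3 by at least 2-fold (Cd14, Trem3 and Fcgr4; 4.88% of all genes). By that much 1 was higher (Clec5a; 11.8% of all genes). The median was -0.41, with -0.32, -0.002 and -0.24 in the 3 pools and -0.07 without pool A.

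Lists of interferon response genes, of chemoattractant and cytokine receptors and of NADPH oxidase subunits had medians from -0.42 to 0.29. Of 26 interferon response genes, 15 were counted with age, none past 2-fold, with a median of 0.04. With metformin 12 were counted and 11 lay below 0, 3 by at least 2-fold (Ifitm1, Ifitm6 and Rtp4; 4.88% of all genes), with a median of -0.42. Ifitm1, a membrane protein that restricts virus entry, stood at 1794, 2250 and 968 CPM, with a ratio with metformin of -1.21 (-1.54 to -0.90), or -0.89 without pool A. Ifitm6 had 67.6% of its aged UMIs in 1 cell, and its metformin ratio of -1.62 was -0.16 without that cell. Chemoattractant receptors had medians of 0.09 and -0.12, with Fpr1, a formyl peptide receptor, at least 2-fold lower with metformin (4.88% of all genes). Cytokine receptors had medians of 0.07 and -0.24. With age 1 of the 16 counted was at least 2-fold lower (9% of all genes) and none higher. With metformin 14 were counted, 1 at least 2-fold higher (11.8% of all genes) and 1 lower (4.88%). Il1r2, the decoy receptor for interleukin 1, stood at 643, 330 and 488 CPM, with a ratio with age of -0.93 (-1.55 to -0.41). The NADPH oxidase list, which makes the oxidative burst, had medians of 0.29 and -0.20. Only Cybb was at least 2-fold lower in aged cells (9% of all genes), at 354, 140 and 109 CPM. The ferritin genes Fth1 and Ftl1 store iron. Fth1 stood at 16543, 17788 and 24486 CPM, a ratio of 0.46 (0.38 to 0.54) with metformin, and Ftl1 at 8142, 8829 and 11104. Only 2 of 16 cell cycle genes reached 20 UMIs, and only 4 of 22 listed genes of metformin action and energy sensing in the comparison with age and 3 in that with metformin. For the genes of these lists below the minimum a difference was not detectable at this depth.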

How the data were processed

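The deposited files hold UMI counts per gene and cell, with no normalization, and a table in which the authors give each cell its pool, condition, cell type name and percent of mitochondrial UMIs. Reads were processed with Cell Ranger 3.0.2 on GRCm38, per the submitters' processing notes. All 14353 deposited cells have at least 500 UMIs and at most 19.9666% mitochondrial UMIs, and 40 of 18789 genes have no UMI. How cells were given a type and a tag was not given in the labels, the authors' doublet column marks 0 cells, and no doublet caller was run, so doublets within 1 tag cannot be seen.

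Counts were summed over the neutrophils of a condition, scaled to CPM, and compared as log2 ratios with 1 UMI added, for genes that reached 20 UMIs in both conditions together. Each condition is 1 suspension, so no test was made. Intervals for shares are Clopper-Pearson, those for ratios exact conditional, all at 95%, and UMI intervals and floors of 3 UMIs cover counting error only. Cells were thinned to 500 UMIs, the lowest depth, so none was left out. The 2-fold summary was run on simulated counts with planted changes. These were drawn from a shared profile without spread between cells or pools, so the simulation covers counting error only. Python 3.11.15, numpy 2.4.6, pandas 2.3.3 and scipy 1.17.1 were used.

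The members, gene lists and comparisons were chosen with earlier results of these data known. Genes were named by rank: in each comparison up to 8 highest and 8 lowest by the bound nearest 0 of the interval, past 2-fold, with 1 sign in every pool holding at least 5 neutrophils of both conditions. Mitochondrial, ribosomal protein and hemoglobin genes, Malat1, Xist, gene models, immunoglobulin genes and the 20 leading genes of each other cell type were left out of the ranks. The 4 markers and up to 4 members with the most UMIs of each list were added, or up to 6 where the list's median was beyond 0.3 either way. Camp, Ltf, Ly6g, Siglecf, Tnf, Csf1, Cxcl1, Cxcl3, Cxcl10, Ccl5, Cybb, Fpr1, Rtp4, Trem3, Fcgr4, Clec5a and Il17a were named after their values were seen. Some genes that the rule would name are not reported here. Alternatives varied the UMI minimum, the UMIs added, the scaling, the cells, the pools and the denominator of the shares.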

Additional observations from a re-analysis of the deposited data

How the results depend on the processing

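No paired analysis was possible because each condition is 1 suspension and no result comes from a test. The share of neutrophils in aged against young ovaries was 2.69 times with myeloid cells as the denominator in place of 1.18 times, and leaving out 1 pool gave 1.03 to 1.34. The metformin share against aged was 0.879 times among immune cells in place of 1.23, and 1.05 to 1.49 with 1 pool left out.

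Counts of genes past 2-fold depended on the minimum. Of genes higher with age there were 15 with at least 50 UMIs, 439 with at least 5 and 31 in thinned cells, in place of 76, and 52 to 73 with 1 pool left out. Of genes lower with age there were 55, 745 and 54 under the same settings in place of 199, 43 with 5 UMIs added, 129 without the cells with markers of other types, and 123 to 190 with 1 pool left out, the lowest without pool C. Of genes higher with metformin there were 58, 875 and 66 in place of 203, 97 with 5 UMIs added, and 86 to 247 with 1 pool left out, the lowest without pool A. Of genes lower with metformin there were 27, 367 and 34 in place of 84, 49 without the cells with markers of other types, and 49 to 80 with 1 pool left out, the lowest without pool A. The cause was not tested beyond the fewer genes or cells that these settings keep.

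Of 645 alternative values of list medians, 69 moved and 0 changed sign after lying past 2-fold. Sign changes were counted only for medians past 2-fold, which were few, and smaller medians did change sign. With metformin the mitochondrial median went from 0.57 to -0.87 without pool C. The NADPH oxidase median with metformin went from -0.20 to 0.30 without pool A. With age the median of the tissue residence list went from 0.18 to -0.34 without pool C. Of 2827 for named genes, 387 moved and 7 changed sign after lying past 2-fold with an interval off 0. Gdf15 with age was -2.92 in cells with at least 2 markers, -1.37 without its highest cell and -1.47 to 2.91 with 1 pool left out (the lowest without pool C), and with metformin 1.29 in cells with at least 2 markers. H2-Aa with age was 0.43 and S100a4 with metformin 0.18 without the cells with markers of other types. Chil3 with metformin was 0.36 in thinned cells. The leave-out of the aged cell with Camp and of cells with other markers was chosen after seeing the data. Depth limits genes under 20 UMIs, and 74 aged cells limit shares of rare genes.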
